A study of Mus musculus with 34 samples.

Results

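Cpt1b, Fabp3 and Hk2 are the forms of 3 fuel-handling proteins that are best known from muscle. They were taken by name from the platform annotation of the arrays, which gives 1 probe to each, so they are 3 of 18617 named genes. They had been picked for their slope over the high fat generations, that is over HF0, HF1, HF3 and HF4. Values among those groups are therefore given as a description, with no test. Prm1 and Tnp1, which encode a protamine and a transition protein of sperm chromatin, served as a gauge of sperm transcripts, because epididymal fat is dissected from beside the epididymis. Each of these also has 1 probe.

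Total RNA of mouse epididymal fat was hybridised on 34 two-colour arrays, each carrying 2 diet groups. STD mice ate a normal diet. HF0 were the young of STD mice and ate a high fat diet, HF1 were the high-fat young of HF0, HF3 those of a generation HF2, and HF4 those of HF3. The reversal groups (HF1-REV, HF3-REV, HF4-REV) descended from the same high-fat parents as HF1, HF3 and HF4 but ate the normal diet. The sources used here name no strain, age or number of animals behind an extract. HF2 was not analysed here. Experiment 1 (12 arrays) held every pairing of STD, HF0, HF3 and HF4 as a dye swap. Experiment 2 (22 arrays) held every pairing of HF0, HF1, HF3 and HF4, each high fat group with its reversal group, and HF0 with STD on 4 arrays. All groups shared the tissue and the labelling kit, but the extraction differed: Trizol was used for experiment 1, Qiagen for experiment 2.

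Muscle draws on both fatty acids and glucose, and each gene stands at an entry point. FABP3, the heart-type fatty acid binding protein, carries fatty acids through the cytosol. CPT1B, the muscle-type carnitine palmitoyltransferase of the outer mitochondrial membrane, joins them to carnitine so that they can enter the mitochondrion for oxidation. HK2, the insulin-responsive hexokinase, traps glucose as glucose 6-phosphate. White fat cells also contain HK2, which feeds glucose into lipid synthesis there, and brown fat cells contain much FABP3 and CPT1B.

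The promoters of Fabp3 and Hk2 are shown because these 2 of the 3 fuel genes had an entry among the RefSeq promoters (build GRCm38.p6), and those of Prm1 and Tnp1 because they are the gauge. Each line gives the 250 bases before the start of the gene, 5′ to 3′. Capitals mark matches on either strand to ACGTG (core of the hypoxia response element), TGACG (core of the cyclic AMP response element) or CCAAT (the CCAAT box).
Fabp3 (chr4:130308488-130308737, plus strand): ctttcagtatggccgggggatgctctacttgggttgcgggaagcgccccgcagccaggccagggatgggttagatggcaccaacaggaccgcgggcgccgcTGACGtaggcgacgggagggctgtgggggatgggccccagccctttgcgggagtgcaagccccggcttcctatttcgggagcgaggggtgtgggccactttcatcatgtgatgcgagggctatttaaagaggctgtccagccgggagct
Hk2 (chr6:82774455-82774704, minus strand): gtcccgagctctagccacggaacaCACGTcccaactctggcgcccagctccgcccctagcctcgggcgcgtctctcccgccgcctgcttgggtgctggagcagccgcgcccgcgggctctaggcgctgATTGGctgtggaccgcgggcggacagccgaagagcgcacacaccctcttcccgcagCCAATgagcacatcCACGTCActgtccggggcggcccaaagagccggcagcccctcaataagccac
Prm1 (chr16:10796824-10797073, minus strand): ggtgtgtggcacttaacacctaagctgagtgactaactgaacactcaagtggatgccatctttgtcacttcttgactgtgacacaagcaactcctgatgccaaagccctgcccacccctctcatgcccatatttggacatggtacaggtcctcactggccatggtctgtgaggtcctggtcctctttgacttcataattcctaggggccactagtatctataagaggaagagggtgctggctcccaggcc
Tnp1 (chr1:73015900-73016149, minus strand): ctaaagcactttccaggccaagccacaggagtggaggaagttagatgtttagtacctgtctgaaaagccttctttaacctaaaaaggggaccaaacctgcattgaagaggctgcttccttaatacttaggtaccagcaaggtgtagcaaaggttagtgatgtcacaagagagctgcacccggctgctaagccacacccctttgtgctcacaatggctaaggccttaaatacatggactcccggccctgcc

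The Hk2 window held 2 matches to the hypoxia core, 1 to the cyclic AMP core and 2 to the CCAAT box. The second hypoxia match overlaps that of cyclic AMP. The Fabp3 window held 1 match to the cyclic AMP core. Among all 32851 RefSeq promoter windows of that length, 16.6% held the hypoxia core, 17.8% the cyclic AMP core and 33.8% the CCAAT box. AGGTCA, the hexamer bound by nuclear receptors such as the PPARs, was in none of the 4 windows and in 14% of all windows. The motif TATAAA was likewise in none of the 4 windows and in 12.4% of all. The E box CANNTG occurred once in Fabp3 and once in Prm1, and in 66.2% of all windows. A match describes the letters of the window and is no evidence of binding.

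Every value is a log ratio, base 2 assumed, that sets the group named first over the other. The sources used here do not say which dye was the numerator. Values were coded as Cy5 over Cy3, so a sign says only which values point the same way, not in which group RNA was more abundant. The table holds ratios without intensities. It could therefore not be checked whether adipocyte, muscle or sperm markers were present in an extract, and levels of different genes cannot be compared. The precision is limited by the number of arrays. In a tissue extract, fewer cells of a type and less RNA per cell cannot be told apart.

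The pairings of experiment 1 did not close, and this touches every value that rests on them. A difference measured on its own arrays should equal the same difference added up through another group. For Hk2 in experiment 1, HF4 against STD was 1.43 on its own arrays but -1.77 through HF0 and 2.26 through HF3. HF3 against STD was 1.74 directly and -0.65 through HF0, and HF4 against HF0 was -0.52 directly and 1.12 through HF3. Fabp3 gave -0.16 and 1.67 for that last pair of routes, and Cpt1b gave 0.54 and 2.19. Prm1 showed the same kind of gap, with HF3 against STD at 0.30 directly and 4.37 through HF0.

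In experiment 2 the routes lay closer, though not for every gene and route. Hk2 in HF4 against HF0 was 0.52 directly, 0.24 through HF1 and 0.33 through HF3. Fabp3 was 1.12 directly, 1.01 through HF1 and 0.68 through HF3, and Cpt1b was 0.84, 0.47 and 0.72. In HF3 against HF0, Cpt1b was 0.47 directly but -0.03 through HF1, and Hk2 was 0.80 and 0.40. Over all 22879 features, the correlation of the direct and the added-up differences lay between -0.02 and 0.65 for 4 routes of experiment 1 and between 0.69 and 0.82 for 4 routes of experiment 2. These r values run across features, which are not independent, and the SD of the gap was 0.45 to 0.68 and 0.39 to 0.43. The dye-swapped arrays of a pairing also differed in both experiments. Their values correlated over all features at -0.11 to 0.50 in experiment 1 and at -0.31 (HF1 with HF1-REV) to 0.57 (HF4 with HF4-REV) in experiment 2. Group values of experiment 1 are thus averages over disagreeing arrays, and results are given with experiment 2 alone beside them.

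**Figure D1:**
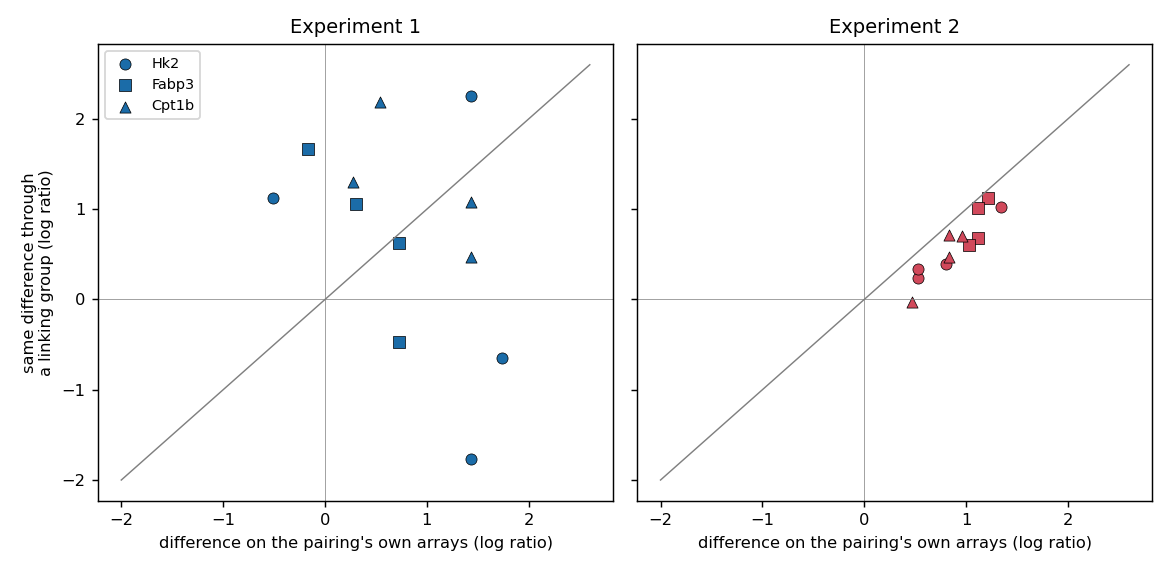
Differences of Hk2 (circles), Fabp3 (squares) and Cpt1b (triangles) measured on a pairing's own arrays (x axis, log ratio) against the same difference added up through another group (y axis, log ratio), 4 routes per experiment; the grey line marks equality. In experiment 1 the points scatter, down to 1.43 against -1.77 for Hk2, while in experiment 2 they lie nearer the line, with Cpt1b off it at 0.47 against -0.03.

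Hk2, the glucose-trapping enzyme, separated HF3 and HF4 from HF1 on every array of experiment 2. HF3 with HF1 read 1.37 and 1.62, and HF4 with HF1 read 1.08 and 1.60. HF1 with HF0 read -1.14 and -1.06. Against HF0 the values were smaller, at 0.70 and 0.90 for HF3 and at 0.41 and 0.63 for HF4, and HF4 with HF3 read -0.62 and -0.31. Hk2 was thus at its most negative in HF1 among the high fat groups, and HF4 did not lie beyond HF3 in that experiment.

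In experiment 1, Hk2 read 0.32 and 0.89 in HF3 with HF0 but -0.30 and -0.73 in HF4 with HF0. HF4 with HF3 read 0.26 and 0.78. HF3 with STD read 2.14 and 1.34, HF4 with STD 0.96 and 1.90, and HF0 with STD -1.04 and -1.47. The arrays of each dye swap of experiment 1 shared a sign, but HF4 with HF0 and HF4 with HF3 each had opposite signs in the 2 experiments.

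Fabp3, the fatty acid carrier, separated HF3 and HF4 from HF0 and HF1 in experiment 2. HF3 with HF0 read 0.98 and 1.45, HF3 with HF1 1.23 and 1.04, HF4 with HF0 1.22 and 1.03, and HF4 with HF1 0.85 and 1.20. HF1 with HF0 lay on both sides of 0, at -0.17 and 0.14, and HF4 with HF3 read -0.59 and -0.47. HF0 and HF1 thus differed by less than the spread of their arrays, and HF3 and HF4 lay on the positive side of both.

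In experiment 1, Fabp3 read 1.14 and 1.58 in HF3 with HF0. HF4 with HF0 lay around 0, at 0.05 and -0.38, and HF4 with HF3 read 0.32 and 0.31. HF3 with STD read 0.30 and 0.32, and HF4 with STD 0.46 and 1.00. The separation of HF4 from HF0 that all arrays of experiment 2 showed was not seen on the matching arrays of experiment 1.

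Cpt1b, the mitochondrial gatekeeper of fatty acids, had HF4 on the positive side of HF0 on every array that held both. In experiment 2, HF4 with HF0 read 0.77 and 0.91, and HF4 with HF1 read 1.10 and 0.82. HF3 was less separated, with 1.08 and -0.13 against HF0 and 0.69 and 0.24 against HF1. HF4 with HF3 read 0.59 and -0.10, and HF1 with HF0 read -0.28 and -0.70.

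In experiment 1, Cpt1b read 0.80 and 0.29 in HF4 with HF0, 0.68 and 0.94 in HF4 with HF3, and 1.13 and 1.62 in HF3 with HF0. HF4 with STD read 1.40 and 1.46, and HF3 with STD 0.31 and 0.23. All 4 arrays that held HF4 and HF0 were positive for Cpt1b, 3 of 4 were for Fabp3 and 2 of 4 for Hk2.

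The gauge was far more separated on the same arrays. Prm1 read between 3.20 and 5.93 on the 8 arrays of experiment 2 that set HF3 or HF4 against HF0 or HF1, and between 3.11 and 4.84 on the 4 of experiment 1 with HF0. HF1 with HF0 read -0.13 and 0.53. In HF4 against HF0, Prm1 stood at 4.45 ± 0.75 (adjusted p = 0.0292) and Tnp1 at 4.56 ± 0.86 (adjusted p = 0.0428), and 16 of 19 further sperm and testis markers passed as positive (median 3.05), where 4.21% of all features passed.

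**Figure D2:**
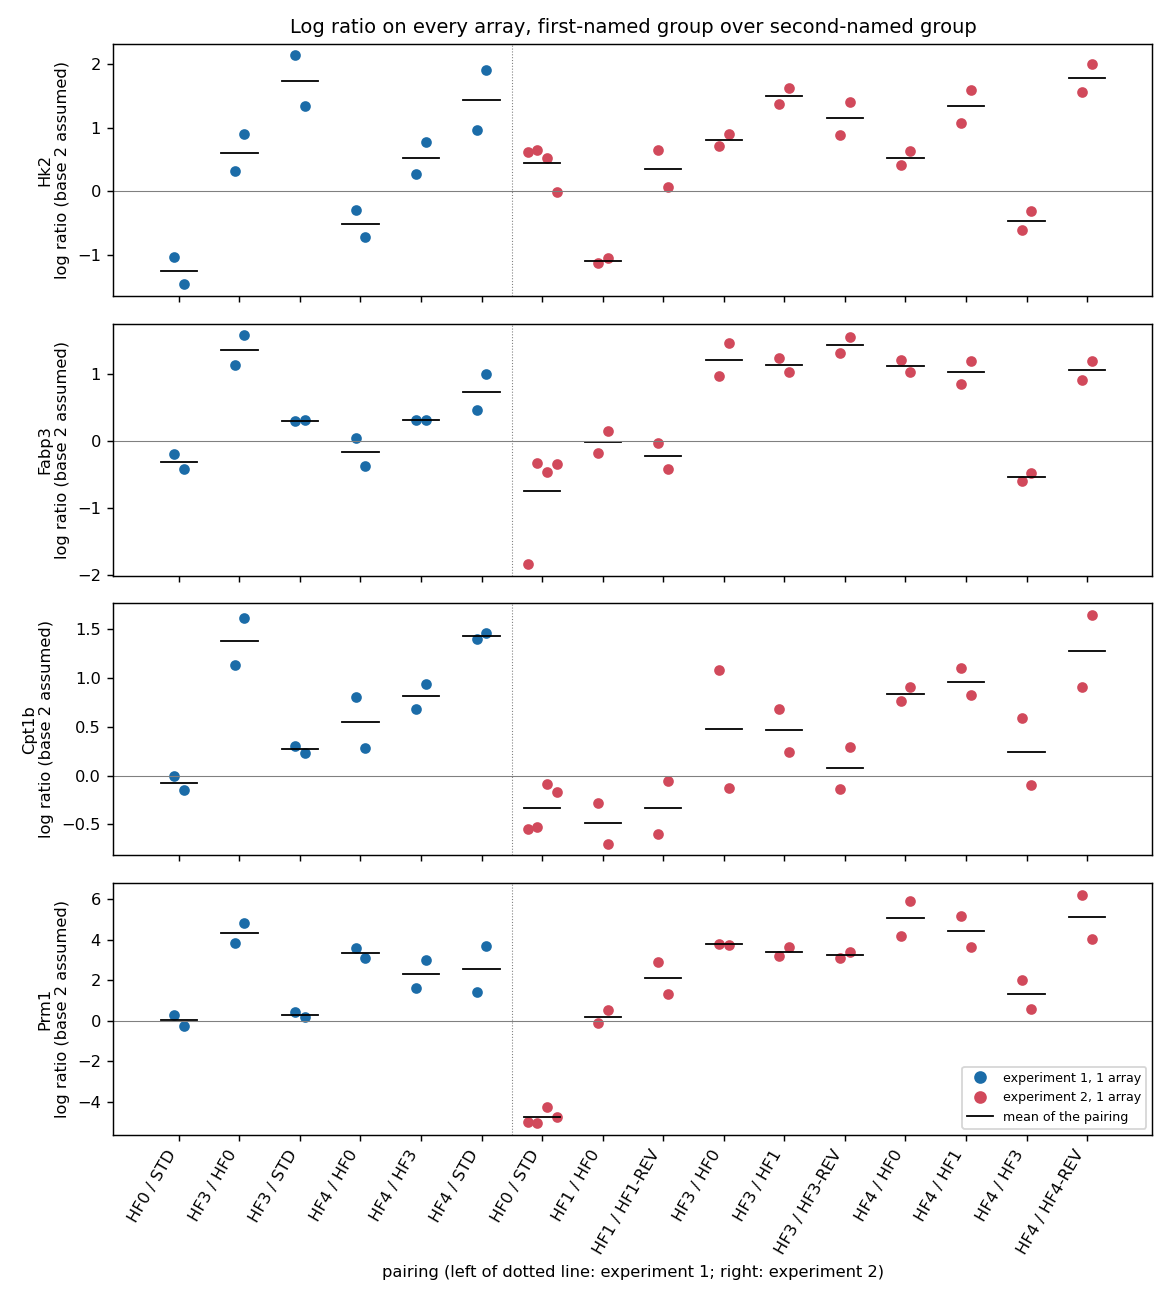
Log ratio (y axis) of Hk2, Fabp3, Cpt1b and Prm1 on each of the 34 arrays (points), grouped by pairing (x axis; first-named group over second-named), with black lines for the mean of a pairing. In experiment 2 every point of HF3 / HF1, HF4 / HF0, HF4 / HF1 and HF4 / HF4-REV lies above 0 for all 4 genes, while Prm1 alone lies between -5.07 and -4.25 in HF0 / STD.

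Fitted within each experiment, HF3 and HF4 lay on the positive side of HF0 for all 3 genes. Relative to HF0, Hk2 in HF3 was 0.79 (experiment 1) and 0.75 (experiment 2), and in HF4 0.69 and 0.41. In HF1, which only experiment 2 holds, it was -0.93. Fabp3 in HF3 was 0.71 and 1.30, in HF4 0.59 and 0.98, and in HF1 0.04. Cpt1b in HF3 was 0.71 and 0.38, in HF4 1.20 and 0.72, and in HF1 -0.27. Cpt1b had HF4 beyond HF3 in both experiments, although its arrays of HF3 with HF0 in experiment 1 read higher than those of HF4 with HF0. Fabp3 and Hk2 had HF3 beyond HF4 in experiment 2. In experiment 1 their fitted values had that order by a small margin, while their own arrays of HF4 with HF3 ran the other way, as given above.

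The slope that chose the genes was 0.25 per generation for Cpt1b (0.28 in experiment 1 and 0.21 in experiment 2). It was 0.25 for Fabp3 (0.17 and 0.32) and 0.22 for Hk2 (0.19 and 0.25). The median slope of all features was -0.01. Of 22879 features, 952 had a higher slope than Cpt1b, 954 than Fabp3 and 1052 than Hk2. Prm1 had a slope of 1.14 and Tnp1 one of 1.20, with 8 and 4 features above them. Over the 3 reversal groups, which did not enter the choice, the slope was -0.16 for Cpt1b, -0.12 for Fabp3 and 0.03 for Hk2, and it was 0.60 for Prm1 and 0.52 for Tnp1. These slopes rest on 3 group values each and have no test.

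Over all 8 groups, with the experiments averaged, Hk2 ran from 0.51 in HF3 and 0.29 in HF4 through -0.26 in HF0, -0.55 in STD and -0.58 in HF3-REV to -1.10 in HF1, -1.46 in HF1-REV and -1.56 in HF4-REV. Zero stands for the mean of STD, HF0, HF3 and HF4. The SD between experiments after the fit was 0.11, and the neighbours STD and HF3-REV and the neighbours HF1-REV and HF4-REV were closer than that. Fabp3 ran from 0.44 in HF3 and 0.22 in HF4 through -0.10 in STD to -0.50 in HF1-REV. Below these, HF0 at -0.57, HF1 at -0.72, HF4-REV at -0.83 and HF3-REV at -0.89 followed at steps under its SD of 0.19. Cpt1b ran from 0.53 in HF4 and 0.12 in HF3 through -0.06 in HF3-REV, -0.22 in STD, -0.30 in HF1-REV, -0.43 in HF0 and -0.63 in HF1 to -0.92 in HF4-REV. Only the first and the last of its steps exceeded the SD of 0.23. HF1 and the reversal groups have 1 value each and add nothing to these SDs.

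**Figure D3:**
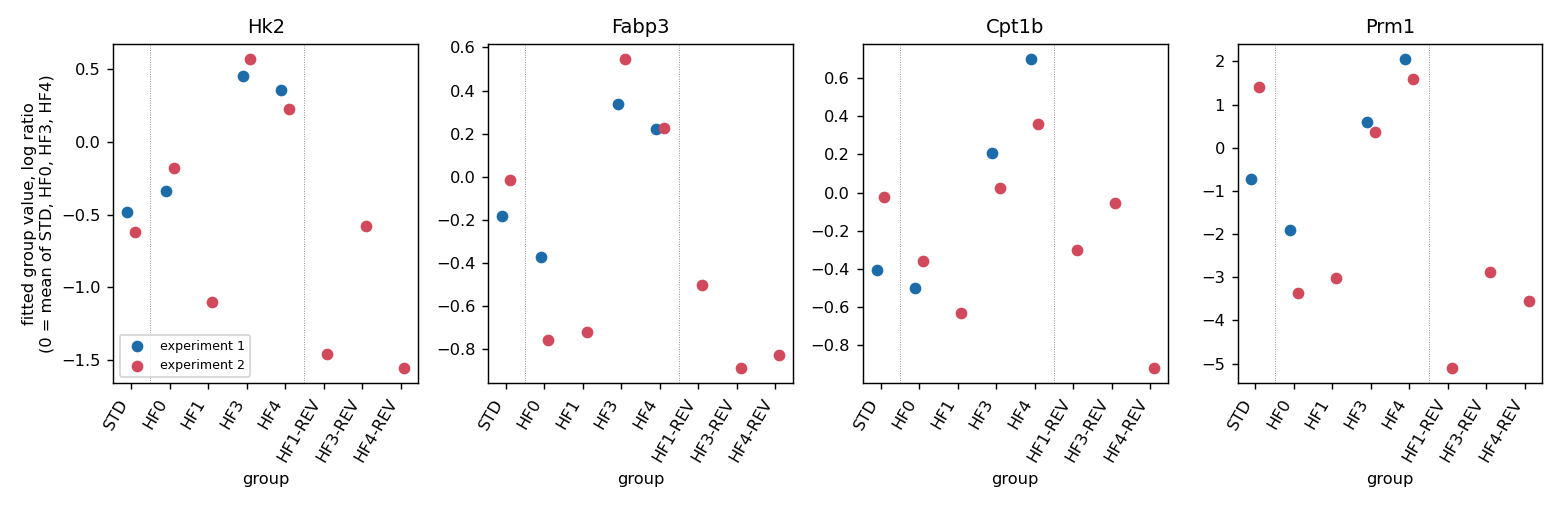
Fitted group values (y axis, log ratio, 0 at the mean of STD, HF0, HF3 and HF4) of Hk2, Fabp3, Cpt1b and Prm1 in the 8 groups (x axis), 1 point per experiment; the panels have different scales. HF3 and HF4 hold the most positive values of the 3 fuel genes, and HF4-REV the most negative of Hk2 (-1.56) and Cpt1b (-0.92), while Prm1 in STD differs between experiments (-0.72 and 1.41).

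The reversal comparisons ask what changed when the young of high-fat parents ate the normal diet. In HF4 against HF4-REV all 3 fuel genes were positive on both arrays. Hk2 read 1.56 and 2.00 on its 2 arrays, and the difference was 1.85 ± 0.17 (SE; limma adjusted p = 0.0113). Cpt1b read 0.91 and 1.65, and the difference was 1.45 ± 0.24 (adjusted p = 0.0238). Fabp3 read 0.91 and 1.19, with 1.05 ± 0.22 (adjusted p = 0.0358). HF4 enters with n = 2 experiments and HF4-REV with n = 1, assumed to vary like the others. In this comparison 11.2% of all features passed and 7.35% passed on the positive side, beside 3 of 3 fuel genes. The HF4 value averages the high fat arrays of both experiments, which chose the genes, and HF4-REV took no part, which favours a positive difference. These p-values are therefore not independent of the choice. On the arrays of the pairing alone, the means were 1.78 for Hk2, 1.28 for Cpt1b and 1.05 for Fabp3.

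Those calls depended on settings. Hk2 missed the threshold when each pairing was a unit and the misfit between pairings was the error (1.78, adjusted p = 0.115). Fabp3 missed it there too (1.05, adjusted p = 0.0987), after quantile normalization (0.79, adjusted p = 0.09) and without the arrays of the last labelled date (1.14, adjusted p = 0.0547). Cpt1b missed it when arrays were scaled to one spread (1.19, adjusted p = 0.0689) and after quantile normalization (1.12, adjusted p = 0.0786).

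The sperm gauge moved with these results. Prm1 read 6.22 and 4.04 on the same arrays, with a difference of 5.36 ± 0.96 (adjusted p = 0.0264), and Tnp1 read 6.20 and 3.60, with 5.25 ± 1.10 (adjusted p = 0.037). The array with the higher Prm1 had the lower Hk2, Fabp3 and Cpt1b of the pair. The 2 arrays are a dye swap of one pairing, so dye or array error cannot be told apart from a difference in RNA there. Of 19 further sperm and testis markers, 19 were positive and 17 passed (median 3.50, from 1.10 to 5.88, beside a median of 0.03 over all features). They were led by Crisp2, a secretory protein of the acrosome, at 5.88 ± 0.25 (adjusted p = 0.00612), Meig1, needed for sperm formation, at 5.42 ± 0.65 (adjusted p = 0.0135), and the transition protein gene Tnp2 at 5.32 ± 1.12 (adjusted p = 0.0375). Of 13 epididymis markers, 9 were positive (-1.25 to 2.97) and 1 passed, the receptor kinase gene Ros1, at 1.62 ± 0.37 (adjusted p = 0.0444). The part of sperm transcripts in the values of the 3 fuel genes was not tested.

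HF3 against HF3-REV gave larger values for Fabp3 and Hk2 than for Cpt1b. HF3 took part in the choice of the genes here too, and HF3-REV enters with n = 1. Fabp3 read 1.31 and 1.55 on its 2 arrays (1.33 ± 0.22, adjusted p = 0.0872), and Hk2 read 0.89 and 1.41 (1.09 ± 0.17, adjusted p = 0.0783). Neither passed in the main test, in which 0.0874% of all features did. With each pairing as a unit they were further from the threshold (1.43, adjusted p = 0.185, and 1.15, adjusted p = 0.564). Fabp3 passed with arrays scaled to one spread (adjusted p = 0.0408), and both passed after quantile normalization (adjusted p = 0.0331 and 0.0385). Both also passed when either array of HF3 with HF3-REV was left out (adjusted p = 0.0273 and 0.0302 for Fabp3, 0.0174 and 0.0376 for Hk2), when 1702 and 2300 features did. Cpt1b read -0.13 and 0.29 (0.17 ± 0.24, adjusted p = 0.766) and lay on both sides of 0. Without the second of these arrays its difference was -0.040. Prm1 read 3.12 and 3.39 there (3.37 ± 0.96, adjusted p = 0.2).

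HF1 against HF1-REV showed small values for all 3. HF1 took part in the choice of the genes, and both groups have 1 value each. Hk2 read 0.64 and 0.06 (0.35 ± 0.19), Fabp3 -0.03 and -0.41 (-0.22 ± 0.24), and Cpt1b -0.60 and -0.06 (-0.33 ± 0.27), each with an adjusted p of 1. Among all features 0% passed, and 821 had an unadjusted p under 0.05 with limma. Prm1 read 2.88 and 1.29 there (2.09 ± 1.07, adjusted p = 1). Prm1 was positive on both arrays while Fabp3 and Cpt1b were negative on both.

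Whether the reversal differences themselves differed was tested as an interaction. The high fat groups in it took part in the choice of the genes, which favours a positive HF4 less HF1. These p-values of the 3 genes are therefore not independent of the choice. HF4 less HF1 gave 1.77 ± 0.37 for Cpt1b (adjusted p = 0.114), 1.50 ± 0.25 for Hk2 (adjusted p = 0.102) and 1.27 ± 0.32 for Fabp3 (adjusted p = 0.144). HF4 less HF3 gave 1.27 ± 0.33 for Cpt1b (adjusted p = 0.174), 0.76 ± 0.23 for Hk2 (adjusted p = 0.201) and -0.28 ± 0.29 for Fabp3 (adjusted p = 0.681). No feature passed in any of these, while 4210 and 3831 had an unadjusted p under 0.05 with limma. A larger reversal difference in HF4 than in the earlier generations was therefore not established for any of the 3.

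The first generation of high fat feeding, HF0 against STD, gave no call. Fabp3 read -1.83, -0.33, -0.46 and -0.34 on the 4 arrays of experiment 2 and -0.19 and -0.42 on the 2 of experiment 1. All 6 were negative (-0.47 ± 0.17, adjusted p = 0.674), and without the array at -1.83 the difference was -0.28. Cpt1b read -0.55, -0.52, -0.08 and -0.17 in experiment 2 and 0.00 and -0.15 in experiment 1 (-0.21 ± 0.19, adjusted p = 0.848). Hk2 read 0.61, 0.64, 0.52 and -0.02 in experiment 2 but -1.04 and -1.47 in experiment 1 (0.29 ± 0.13 fitted, adjusted p = 0.684). Among all features 0% passed, and 1685 had an unadjusted p under 0.05 with limma.

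The gauge lay further from 0 than the fuel genes in this pairing in experiment 2. There, Prm1 read between -5.07 and -4.25 on the 4 arrays and Tnp1 between -5.17 and -4.49. STD thus stood at the same end as HF3 and HF4 for the sperm genes. Fabp3 and Cpt1b had the same sign as the gauge on all 4 arrays, and Hk2 had the other sign on 3 of them. In experiment 1, Prm1 read 0.30 and -0.25. Fitted HF4 against STD in experiment 2 was 0.18 for Prm1 and 0.10 for Tnp1, against 0.85 for Hk2, 0.38 for Cpt1b and 0.24 for Fabp3. No array of experiment 2 held HF4 with STD, so these values rest on links through HF0. In experiment 1, which held that pairing, the fitted values were 2.77 for Prm1 and 3.25 for Tnp1. There Hk2 stood at 0.84, Cpt1b at 1.10 and Fabp3 at 0.40. In experiment 2, HF1 against HF0 was 0.35 for Prm1 and -0.93 for Hk2. HF4-REV against HF0 was -0.19 for Prm1, -1.38 for Hk2, -0.56 for Cpt1b and -0.07 for Fabp3. These are differences between single group values within an experiment, with no test. The 4 arrays of HF0 with STD carry 2 labelled dates. The earlier date held the Fabp3 values -1.83 and -0.34 and the later -0.33 and -0.46, so the dates differ only through the array at -1.83. For Hk2 the earlier date held 0.61 and -0.02, and the later 0.64 and 0.52.

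Over the 12 group values, the 3 genes correlated with each other and with the gauge. Pearson's r was 0.72 for Cpt1b with Fabp3, 0.76 for Cpt1b with Hk2 and 0.78 for Fabp3 with Hk2. With Prm1 it was 0.77 for Cpt1b, 0.85 for Fabp3 and 0.77 for Hk2, and without the 2 values farthest from the median 0.79, 0.91 and 0.65. Over the 8 values of experiment 2 alone it was 0.71, 0.82 and 0.71. The median r with all features was 0.02 for Cpt1b, -0.0013 for Fabp3 and 0.03 for Hk2. The points share arrays, the centring of each array and possibly extracts. The high fat groups among them chose the genes, so these r values are descriptions.

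The features whose 12 values were most like those of each gene differed between the 3. For Cpt1b they were Bag5 (r = 0.97), 1700010J16Rik (0.95), Adam1a (0.95), Tex47 (0.94) and Gk5 (0.94). Adam1a belongs to the fertilin family of sperm, and Tex47 is named as testis expressed. For Fabp3 they were Nt5dc3 (0.99), 1700007N14Rik (0.97), Galnt3 (0.96), 4930503E14Rik (0.94) and Cyp17a1 (0.94), the last an enzyme of androgen synthesis. For Hk2 they were Odc1 (0.97), the first enzyme of polyamine synthesis, Fosl1 (0.97), a subunit of the AP-1 transcription factor, Cnot7 (0.97), Procr (0.95) and Fem1b (0.95). These are the 5 highest values for each gene among all named features.

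The relatives of Cpt1b and Hk2 gave smaller differences than these genes in HF4 against HF4-REV and did not pass. Cpt1a, the liver-type enzyme, stood at -0.53 ± 0.14 in HF4 against HF4-REV (adjusted p = 0.0609) and at -0.41 ± 0.11 in HF4 against HF0 (adjusted p = 0.155). Cpt1c, the brain form, stood at -0.04 ± 0.26, and Cpt2, which acts on the inner membrane, at -0.31 ± 0.27 in HF4 against HF4-REV. Chkb, the choline kinase gene next to Cpt1b in the gene table, stood at 0.22 ± 0.19 there (adjusted p = 0.465). Hk1, the widely expressed hexokinase, stood at 0.16 ± 0.23 and Hk3 at 0.26 ± 0.18. Fabp4, the fat cell carrier, stood at -0.46 ± 0.19 and Fabp5, the epidermal one, at 0.24 ± 0.18. None of these 8 passed in either comparison.

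Among the relatives of Fabp3, 3 passed in HF4 against HF4-REV, all with differences larger in size than that of Fabp3. Fabp9, the testis form of the carrier, stood at 3.94 ± 0.51 in HF4 against HF4-REV (adjusted p = 0.0158) and at 3.60 ± 0.40 in HF4 against HF0 (adjusted p = 0.0101). Among 13 measured genes of fatty acid uptake and binding without Fabp3, 1 passed as positive in HF4 against HF0, and it was Fabp9, where 4.21% of all features passed. In HF4 against HF4-REV, Fabp6 (-1.94 ± 0.25, adjusted p = 0.0152) and Fabp2 (-1.34 ± 0.14, adjusted p = 0.0124), the carriers of ileum and intestine, also passed, on the negative side (median of the 13: -0.36), so that 3 of 13 passed beside 11.2% of all features.

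No other gene of the fatty acid oxidation pathway passed beside Cpt1b in the main test. Of 20 measured genes of the carnitine shuttle and beta oxidation, 17 were negative in HF4 against HF4-REV (median -0.27) and 16 in HF4 against HF0 (median -0.20), where 52.5% and 42.5% of all features were positive. None passed in either comparison in the main test with limma. There 9 and 2 had an unadjusted p under 0.05, beside 7180 and 2500 of all 22879 features. Without centring of arrays, 2 of the 20 passed in HF4 against HF4-REV, beside 2654 of all 22879 features. With pairings of experiment 2 as units 9 passed, beside 5892 of all features, and 3 of the 20 were positive (list median -0.38). In HF4 against HF0, 1 passed in that last setting, beside 2522 of all features. The list median was negative under the other scalings tried too. Adipocyte markers lay on the same side in HF4 against HF4-REV, where 14 of 15 were negative (median -0.57), but not in HF4 against HF0, where 4 were (median 0.09). Their part in it was not tested. The carnitine acetyltransferase gene Crat had the second largest difference against HF0, at 0.33 ± 0.13 (adjusted p = 0.442), after Cpt1a. Of 16 measured hexokinase and glucose genes without Hk2, 8 were positive in HF4 against HF4-REV. None passed there in the main test with limma, where 5 had an unadjusted p under 0.05, beside 7180 of all 22879 features. Their median of 0.02 there turned to -0.01 after quantile normalization. With pairings of experiment 2 as units, 4 of the 16 passed, beside 5892 of all 22879 features. Hk1 and the pyruvate dehydrogenase gene Pdha1 had the largest differences against HF0, at 0.26 ± 0.18 (adjusted p = 0.77) and -0.24 ± 0.17 (adjusted p = 0.766).

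Lists of genes with a shared regulator gave calls near the share of all features (11.2%) in HF4 against HF4-REV. Of 13 measured PPAR targets, 4 were positive and 1 passed, the fatty acid hydroxylase gene Cyp4a14 (0.76 ± 0.16, adjusted p = 0.0364; list median -0.23). Of 11 genes of the hypoxia response without Hk2, 4 were positive and 1 passed as negative, the prolyl hydroxylase gene P4ha1 (-0.71 ± 0.16, adjusted p = 0.0409; list median -0.43). In HF4 against HF0 no gene of either list passed in the main test with limma. The medians were -0.17 and -0.04, with 2 and 0 genes at an unadjusted p under 0.05, beside 2500 of all 22879 features.

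Skeletal muscle markers lay around 0 in HF4 against HF4-REV and in HF4 against HF0. In HF0 against STD their median was 0.05, but Acta1 stood at -1.49 ± 0.23. In HF3 against HF3-REV it was 0.09, but Casq1 stood at 1.02 ± 0.16. No marker of the list passed in these 2 comparisons in the main test. The counts of each marker list in HF4 against HF4-REV stand beside 11.2% of all features that passed. Of 19 skeletal muscle markers measured, 11 were positive in HF4 against HF4-REV and none passed in the main test (median 0.05, from -0.48 to 0.49). In HF4 against HF0, 8 were positive and none passed in the main test (median -0.02). With limma, 2 and 1 of them had an unadjusted p under 0.05 in these comparisons, beside 7180 and 2500 of all 22879 features. The largest differences against HF0 were Ckmt2, the mitochondrial creatine kinase of muscle, at 0.68 ± 0.17 (adjusted p = 0.116), and Myh7, a slow myosin heavy chain, at 0.42 ± 0.33 (adjusted p = 0.824). Of 10 brown fat markers, 5 were positive in HF4 against HF4-REV (median -0.03), and 1 passed as negative, Cox7a1, a subunit of cytochrome oxidase (-0.58 ± 0.14, adjusted p = 0.0498). The part of other cells of fat in the values was not tested. Of 15 adipocyte markers, 14 were negative and 1 passed, the resistin gene Retn (-1.49 ± 0.15, adjusted p = 0.0124). Of 11 macrophage markers, 9 were negative and 1 passed, the macrophage receptor gene Adgre1 (-1.04 ± 0.19, adjusted p = 0.0266). With arrays scaled to one spread, and likewise after quantile normalization, no gene of the PPAR, hypoxia, brown fat, macrophage or epididymis lists passed with limma in HF4 against HF4-REV, and 14 and 8 of the 19 sperm and testis markers did, beside 4.78% and 2.26% of all features. Other settings went the other way. With pairings of experiment 2 as units, 11 of 13 epididymis markers passed in this comparison, beside 5892 of all 22879 features. There 8 of 15 adipocyte, 5 of 11 macrophage, 4 of 13 PPAR and 3 of 11 hypoxia genes also passed. So did 18 of 19 sperm and testis markers, 7 of 13 genes of fatty acid uptake and binding, 2 of 19 skeletal muscle markers and 1 of 10 brown fat markers.

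**Figure D4:**
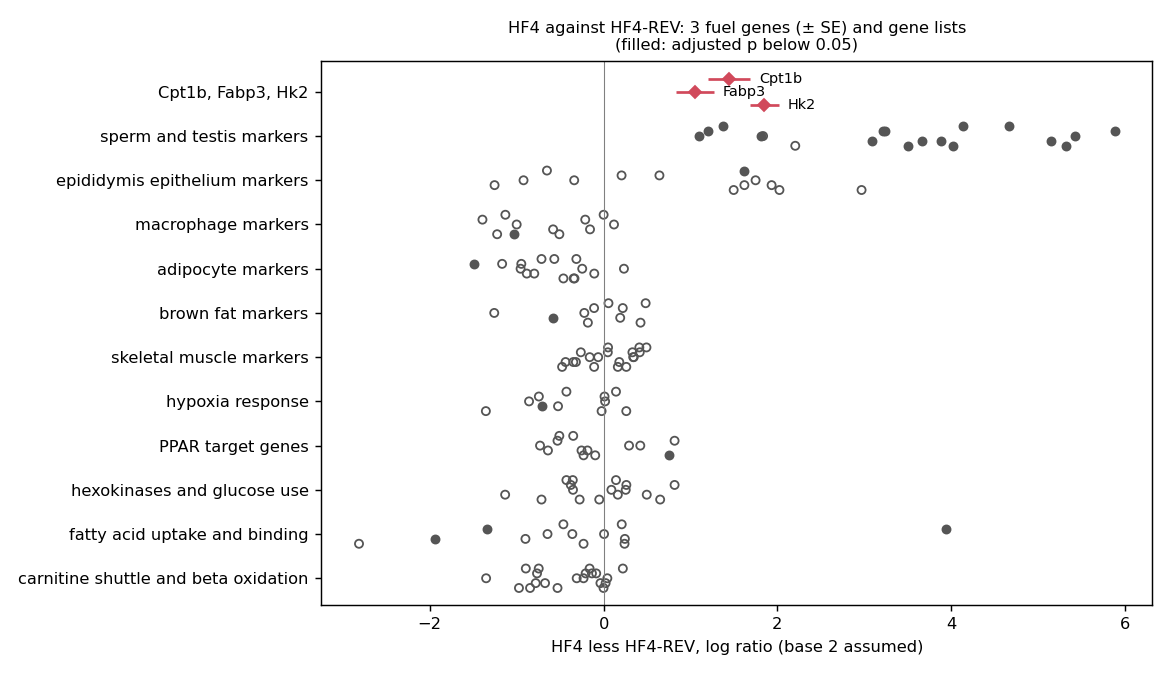
Differences in HF4 against HF4-REV (x axis, log ratio) of Cpt1b, Fabp3 and Hk2 (diamonds, bars ± SE) and of the measured genes of 11 lists (circles; filled where the adjusted p is below 0.05). The 3 fuel genes at 1.05 to 1.85 lie above all 19 skeletal muscle markers and all 20 genes of beta oxidation, while sperm and testis markers reach 5.88.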

How the data were processed

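Per the labels, each array set a Cy3-labelled against a Cy5-labelled extract of epididymal fat. The authors deposited log2 ratios (base assumed), 1 per probe and array, for 25344 probes without missing values; background correction, normalization and dye order: not given in the sources used here. Probes were named through the platform annotation: 21082 had 1 symbol, 30 several and 4232 none, and 20456 symbols were matched through gene IDs. Sign-turned arrays were centred on their medians, probes of a gene were averaged (22879 features) and dye swaps were averaged. Group values were fitted by least squares within each experiment (12 in all, relative to the mean of STD, HF0, HF3 and HF4) and tested with limma 3.58.1 (R 4.3.3), experiment as a block, with 3 residual and 3.16 prior degrees of freedom, Benjamini-Hochberg adjustment over all features and a threshold of 0.05. The method was checked on simulated data. Nothing says that extracts came from separate animals, so p-values of the main test reflect only spread among extracts, which may be technical, and those with arrays or pairings as units only misfit between arrays. The 3 genes, the gauge and the lists were chosen with earlier results of these data known. Genes were named by rule: the 3 and their relatives, up to 4 passing members of each list or else the 2 with the largest HF4 against HF0 difference, and the 5 features most like each gene. Tests covered HF0 against STD, each reversal and, for list genes, HF4 against HF0. The 45 alternatives tried are in the closing section; 2 of them, with pairings as units, were chosen after seeing the data because the pairings of experiment 1 did not close. Sequences came from RefSeq (GRCm38.p6).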

Additional observations from a re-analysis of the deposited data

Results flagged for a closer look

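In HF0 with STD of experiment 2, 1 of the 4 arrays stood apart for Fabp3, at -1.83 beside -0.46 to -0.33 on the others. Chance marks about 1 in 20 such groups of 4 in this way.

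Reversal differences had opposite signs on every array of 2 generations for Cpt1b (HF4 less HF1, 1.77) and for Fabp3 (HF4 less HF1, 1.27, and HF3 less HF1, 1.55). Their interaction tests did not pass (adjusted p = 0.114, 0.144 and 0.35 with limma).

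The same pairing had opposite signs on every array of the 2 experiments in 4 cases, and these differences were not tested. They were Tnp1 in HF0 with STD (experiment 2 less experiment 1, -5.64), Hk2 in HF4 with HF0 (1.04) and in HF4 with HF3 (-0.99), and Fabp3 in HF4 with HF3 (-0.85).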

How the results depend on the processing

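Of 45 alternatives, Hk2 passed in HF4 against HF4-REV in 44, Cpt1b in 43 and Fabp3 in 42. Their ranges were 1.23 to 2.07, 1.07 to 1.82 and 0.79 to 1.19, and each passed in all 34 that left out 1 array. HF4 took part in the choice of the genes, which favours a positive difference in every setting. These counts are therefore not independent of the choice. The 34 settings share almost all of their arrays and are not separate tests. The genes missed the threshold with pairings as units (Hk2 1.78, Fabp3 1.05), with arrays scaled to one spread (Cpt1b 1.19), after quantile normalization (Cpt1b 1.12, Fabp3 0.79) and without the last date (Fabp3 1.14). The cause of these misses was not tested. Slopes kept their sign in every setting, but the slope chose the genes and the settings reuse the same arrays. The kept sign is therefore no support. With single arrays or pairings as units the error is misfit between arrays. Whether arrays of a group shared an extract is not known here, so calls there are not read as bearing on spread between extracts.

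In HF3 against HF3-REV, Fabp3 passed after scaling (1.31), quantile normalization (1.35), with single arrays as units (1.43, also with a dye term per date and with experiment 2 alone), with pairings of experiment 2 (1.43) and without the STD arrays of experiment 2 (1.30). Hk2 passed after quantile normalization (1.27), with single arrays or pairings of experiment 2 (1.15) and without those STD arrays (1.11). Both passed without either array of HF3 with HF3-REV, and over all arrays left out their values ran from 1.21 to 1.45 and from 0.83 to 1.35. HF3 took part in the choice of the genes too, so these calls are not independent of the choice. In HF0 against STD, Fabp3 passed with single arrays and a dye term (-0.47), with single arrays of experiment 2 and with its pairings (-0.74). Hk2 passed with single arrays of experiment 2 (0.44). HF0 took part in the choice of the genes, so these calls are not independent of the choice either. Cpt1b turned sign in HF0 against STD without the STD arrays of experiment 2 (0.043), and in HF3 against HF3-REV without replicate 2 of that pairing (-0.040 to 0.38 over the arrays left out).

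Counts of features that passed moved most. In HF0 against STD there were 0 in the main test, 2512 with single arrays as units, 4417 with a dye term, 3930 with single arrays of experiment 2, 737 with pairings and 2901 with pairings of experiment 2. In HF1 against HF1-REV there were 0, and 30, 154, 56, 52 and 97 in the same order, 8 without the STD arrays, and 166 and 281 without either array of that pairing (0 to 281 over all). In HF3 against HF3-REV there were 20, then 517, 1396, 766, 156 and 1070, with 227 after scaling, 426 after quantile normalization, 0 without the last date and 886 without the STD arrays. Leaving out 1 array gave 0 to 2300 (1702 and 2300 without either array of that pairing). In HF4 against HF4-REV there were 2552, then 3846 with single arrays, 6830 with a dye term, 4300 with pairings and 5892 with pairings of experiment 2, 1094 after scaling, 516 after quantile normalization and 4884 without the STD arrays. Leaving out 1 array gave 1512 (HF3 with HF0, replicate 2 of experiment 2) to 6458 (4378 and 6458 without either array of that pairing). In HF4 against HF0 there were 963, then 2509, 4738, 1964, 2482 and 2522 in the order used for HF0 against STD. Each probe alone gave the same values, since each gene has 1 probe. No paired analysis was possible because the replicate numbers name arrays of one pairing and are not shared between groups in the labels.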
